A study of Mus musculus with 12 samples.

Results

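Cytokine receptors are the surface proteins with which B cells read the cytokines of T cells and other neighbours, and 10 mouse genes that encode such receptors or their signalling chains were followed here through B cell activation. They are Il2ra, Il2rb, Il2rg, Il4ra, Il21r, Il5ra, Il6ra, Il6st, Il10ra and Ifngr1, taken from the deposited table of gene counts by their Entrez IDs, and make up 10 of its 27179 genes. All 10 had enough counts to be tested.

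RNA-Seq covered 12 libraries of splenic B cells from male C57BL/6 mice, young adults per the study's methods, with 2 biological duplicates at each of 6 stages. Naive B cells had received no treatment and, per the methods, were sorted for B220, IgM and high IgD and against TCRβ, a gate that would leave out T, NK and myeloid cells. All other cells were cultured with 25 µg/ml lipopolysaccharide (LPS), the bacterial cell wall component that activates B cells through Toll-like receptor 4, and no cytokine is named in the culture. Cells that carried CD69 and had not divided were sorted at 3, 10 and 33 h, and on day 4 a pair of populations was sorted, namely expanded B cells, which carry CD22 but no CD138, and plasmablasts, which carry CD138 but no CD22 and are the dividing precursors of antibody-secreting plasma cells. No culture without LPS was among the samples, so time in culture and the effect of LPS cannot be told apart. Per the methods, cultured cells were isolated by negative selection and not by the naive sort. Those of 3, 10 and 33 h carried a division dye, and those of day 4 were cultured at a lower density. These differences cannot be told apart from the stage either.

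Most of these receptors work as pairs or trios of chains. The IL-2 receptor has an alpha chain that raises affinity (Il2ra, CD25), a beta chain that signals (Il2rb) and the common gamma chain (Il2rg). The gamma chain is shared with the receptors for IL-4 (Il4ra) and IL-21 (Il21r), T cell cytokines that direct class switching and plasma cell formation. The IL-6 receptor pairs its ligand-binding chain (Il6ra) with gp130 (Il6st), which serves many cytokines of that family. Il5ra binds IL-5 and is known on B-1 cells, and Il10ra and Ifngr1 are the ligand-binding chains for IL-10 and interferon gamma. None of them has catalytic activity of its own, and the receptors they form signal through Janus kinases and STAT factors.

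Total counts per library ran from 23026619 to 60585587. Levels are given as RPKM, that is counts scaled to exon length and library size, on library sizes scaled with the TMM method, as mean ± SD of 2 libraries. Differential expression (DE) means a change larger than 1.5-fold by glmTreat of edgeR, at an adjusted p (Benjamini-Hochberg, over 13195 tested genes) under 0.05. With 2 libraries a stage the smallest two-sided permutation p is 0.333, and lower values rest on the spread pooled over genes and stages. The sorting markers followed the gates, since expanded B cells held Cd22 at 96.4 RPKM and Sdc1 (CD138) at 1.45, against 0.390 and 46.6 in plasmablasts. The summed CPM (counts scaled to the library total) of 5 B cell genes ran from 8131 to 8434 in naive cells, from 3434 to 4194 in the stages from 3 h to expanded B cells, and from 2044 to 2101 in plasmablasts. Those of 5 plasmablast genes reached 16396 to 16909 in plasmablasts, against 362 to 389 in naive cells. Markers of other cells were highest in naive libraries for the myeloid list (7 genes, 121 to 274 CPM), the NK cell list (3 genes, 3.98 to 4.28 CPM) and the T cell list (6 genes, 3.05 to 3.21 CPM). In bulk RNA, fewer cells of a type and less RNA per cell cannot be told apart.

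Summed over the 10 genes, receptor RNA was at 679 and 685 RPKM in the naive libraries, rose to 1503 and 1259 at 3 h, and then lay between 370.0 and 430.4 in the 6 libraries from 10 h to expanded B cells. The plasmablast libraries stood higher again, at 583 and 607. No test was made of this sum. Il2rg and Il21r made up the larger part of it at every stage, whereas Il2rb never exceeded 0.618% in any library.

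**Figure D1:**
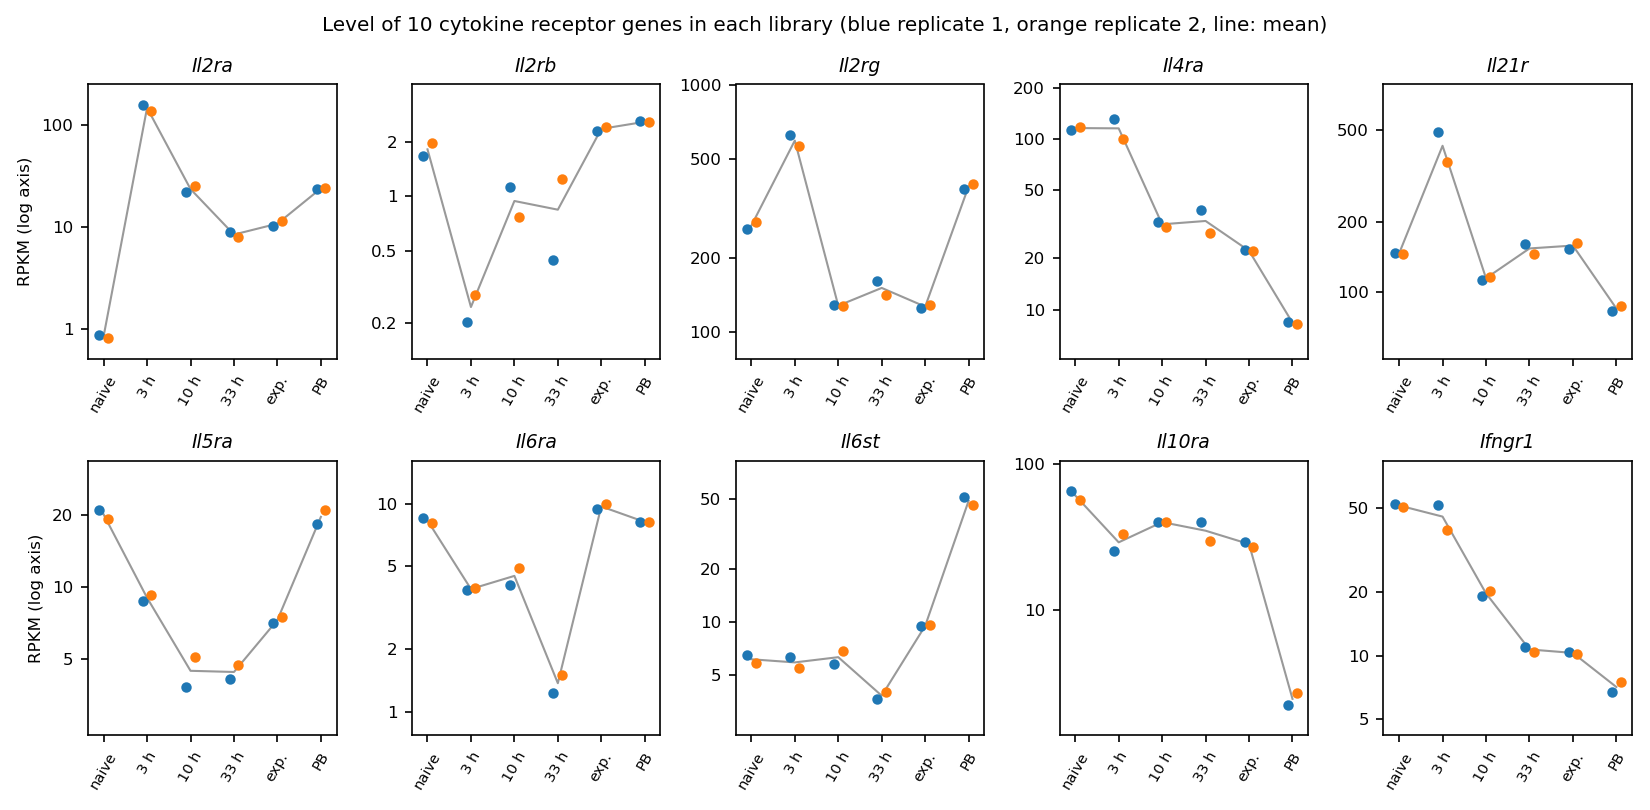
RPKM (log axis, scaled per gene) of the 10 receptor genes at 6 stages, with 1 point per library and a line through the means (exp., expanded B cells; PB, plasmablasts). Il2ra, Il2rg and Il21r stand highest at 3 h, Il6st stands highest in plasmablasts at 48.7 RPKM, and Il4ra, Il21r, Il10ra and Ifngr1 stand lowest there.

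Of the 10 genes, 3 rose and 4 fell between naive cells and 3 h, where 20.9% and 24.2% of all tested genes did so. From 3 h to 10 h 1 rose and 6 fell, with 17.2% and 13.3% among all tested genes. From 10 h to 33 h none rose by glmTreat, whereas 2 of the 10 passed the F-test with no fold threshold upwards, and 3 fell, against 10.0% and 4.41%. Between 33 h and expanded B cells 3 rose and none fell by glmTreat, where 6.87% and 3.56% of all tested genes were called. The F-test gave 2 falls there, those of Il2rg and Il4ra. For both counts of 0, DESeq2 also gave 0, and 0 of the 10 had an unadjusted glmTreat p under 0.05 in that direction. Between expanded B cells and plasmablasts 4 rose and 3 fell, against 14.0% and 12.1% of all tested genes. Set directly against naive cells, plasmablasts had 2 receptor genes up and 4 down, and 26.5% and 23.3% of all tested genes. The median log2 fold change of the 10 was -1.11 from 3 h to 10 h, where that of all tested genes was 0.02, and between -0.21 and 0.20 at the other 4 transitions.

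**Figure D2:**
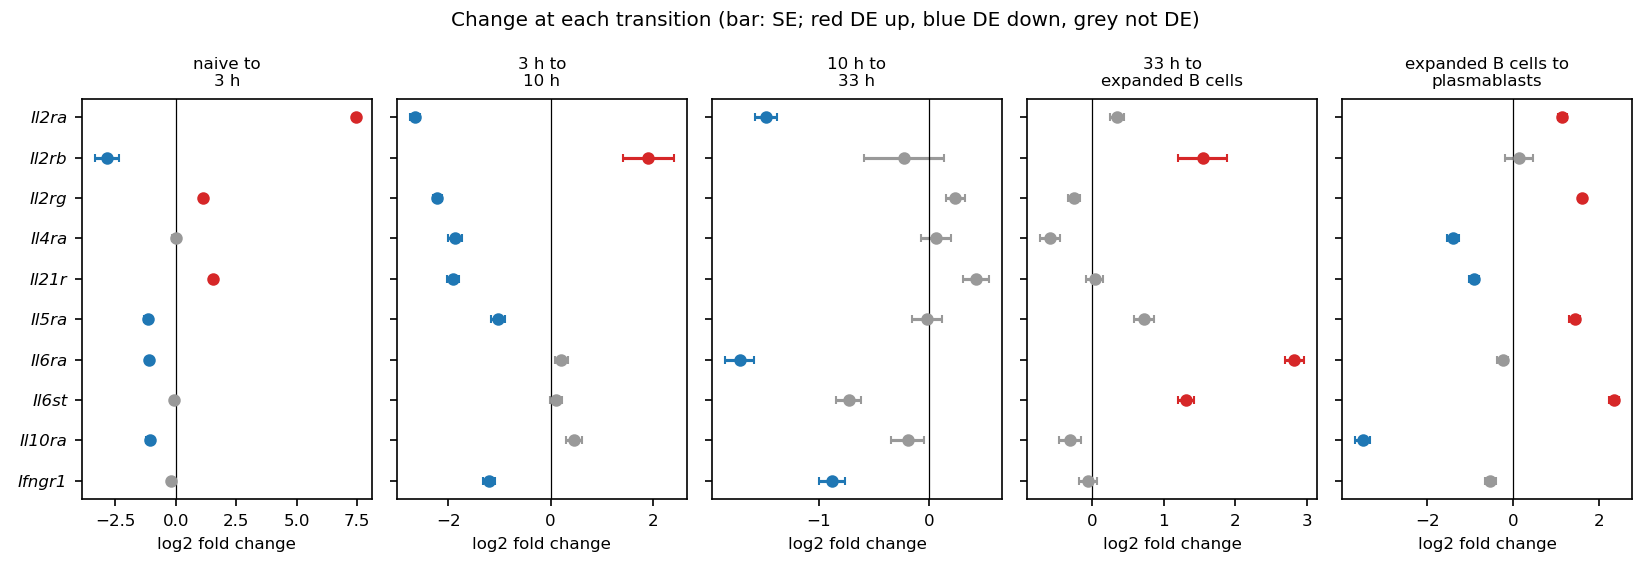
Log2 fold change of each receptor gene at the 5 consecutive transitions (separate axis per panel), with bars for the SE, red for DE up, blue for DE down and grey for not DE. The change of Il2ra by 3 h, 7.44, is the largest of the 50, and the wide bars of Il2rb go with its low counts.

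Il2ra encodes the alpha chain of the IL-2 receptor (Entrez 16184, chromosome 2 of GRCm38 from 11642792 to 11693194). It was near silent in naive cells, at 0.872 and 0.811 RPKM, and stood at 156 and 138 RPKM after 3 h. The log2 fold change was 7.44 (SE 0.12, adjusted p = 9.76e-13), a 174-fold rise that took the gene from the 22.3 percentile of tested genes to the 95.8 percentile. The libraries of the 2 stages did not overlap, nor did those of 3 h and 10 h, where Il2ra was back at 22.0 and 24.9 RPKM. That fall, of -2.65 (SE 0.10, adjusted p = 6.11e-09), was followed by another of -1.48 (SE 0.10, adjusted p = 2.65e-06) to 8.84 and 7.92 RPKM at 33 h. Expanded B cells held 10.2 and 11.3 RPKM, a change of 0.35 that was not DE. Plasmablasts held 23.6 and 23.9 RPKM, which was 2.22-fold higher (log2 1.15, SE 0.10, adjusted p = 7.3e-05). Ordered by level, 3 h came first, then plasmablasts and 10 h, which did not differ beyond their spread, then expanded B cells, 33 h and naive cells.

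The 250 bases before the start of Il2ra are shown because its rise at 3 h was the steepest of the 10. Those of Il5ra and Il6st are shown as examples of genes that rose in plasmablasts. Il2rg rose there as well, and its window, which held no match to the motifs searched, is not printed. The windows are RefSeq promoter sequences on GRCm38.p6, at chr2:11642542-11642791 (plus strand), chr6:106749038-106749287 (minus strand) and chr13:112463820-112464069 (plus strand), each read 5′ to 3′ in the direction of the gene. Capitals mark a match to the NF-kB motif in Il2ra and to the AP-1 motif TGANTCA in Il5ra.
Il2ra: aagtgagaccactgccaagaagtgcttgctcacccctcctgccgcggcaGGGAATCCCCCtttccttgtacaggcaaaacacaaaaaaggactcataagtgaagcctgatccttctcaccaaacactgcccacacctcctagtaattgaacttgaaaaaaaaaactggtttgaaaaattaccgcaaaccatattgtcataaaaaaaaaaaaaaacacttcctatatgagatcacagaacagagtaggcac
Il5ra: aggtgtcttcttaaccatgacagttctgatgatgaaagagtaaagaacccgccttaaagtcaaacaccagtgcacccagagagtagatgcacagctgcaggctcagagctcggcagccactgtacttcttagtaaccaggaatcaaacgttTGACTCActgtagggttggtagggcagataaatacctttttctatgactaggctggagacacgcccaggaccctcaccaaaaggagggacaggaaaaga
Il6st: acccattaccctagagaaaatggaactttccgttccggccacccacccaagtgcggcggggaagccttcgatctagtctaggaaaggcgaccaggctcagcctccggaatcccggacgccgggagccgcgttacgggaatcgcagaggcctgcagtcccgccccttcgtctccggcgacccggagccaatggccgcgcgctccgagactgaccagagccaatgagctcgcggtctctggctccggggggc

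Promoter windows were found for 8 of the 10 genes, all but Il2rb and Il10ra, and all 250 bases of each of the 8 were searched. Those of Il4ra, Il21r and Il6ra hold annotated gene sequence and are not printed. In Il2ra, 3 overlapping matches to the NF-kB motif (a factor that LPS activates) lie about 201 bases before the start, on both strands, and 7.25% of 32851 promoter windows of the same length hold this motif. The AP-1 match of Il5ra begins 99 bases before its start and fits the motif on both strands, and 6.75% of windows hold 1. Neither the STAT motif TTCNNNGAA, held by 7.02% of windows, nor the interferon response motif GAAANNGAAA, held by 2.98%, was found in any of the 8 windows. These are matches of letters and not binding sites, and no binding was measured.

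Il2rb, the signalling chain for IL-2 and IL-15 (Entrez 16185, chromosome 15 from 78479256 to 78511621), stayed low throughout. The naive libraries had 156 and 141 counts, those of 3 h 10 and 24, those of 10 h 149 and 80, and those of 33 h 71 and 121. Expanded B cells had 254 and 224 counts, and plasmablasts had 170 and 202. In RPKM the gene fell from 1.82 ± 0.22 to 0.244 ± 0.059 (SD, n = 2) by 3 h, with a log2 fold change of -2.84 (SE 0.49, adjusted p = 3.9e-04), the opposite direction to the other 2 IL-2 receptor chains. It rose by 1.91 from 3 h to 10 h (SE 0.50, adjusted p = 0.0162), and by 1.54 between 33 h and expanded B cells (SE 0.35, adjusted p = 0.0341). The 33 h libraries stood at 0.443 and 1.25 RPKM, and without replicate 1 of that stage the last rise was 0.92 (adjusted p = 0.287). It was also lost without replicate 1 or 2 of expanded B cells (adjusted p of 0.109 and 0.140). The rise at 10 h was lost without either 3 h library or without replicate 1 of 10 h (adjusted p of 0.0804 to 0.115). The NK cell list, cells in which Il2rb is well known, fell with it by 3 h from 3.98 to 4.28 CPM to 0.347 to 0.395 CPM, and its part in that fall was not tested. In plasmablasts all 3 NK cell genes were at 0 counts while Il2rb stood at 2.59 ± 0.021 RPKM, next to 2.37 ± 0.088 in expanded B cells, a difference that was not DE. The T cell list went from 3.05 to 3.21 CPM in naive libraries to 0.087 to 0.132 CPM at 3 h. It was at 0.111 to 0.264 CPM at 33 h, 0.540 to 0.669 CPM in expanded B cells and 1.09 to 1.58 CPM in plasmablasts. Its part in the course of Il2rb was not tested.

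Il2rg, the common gamma chain (Entrez 16186, chromosome X from 101264385 to 101268255), was the most abundant of the 10 genes per kilobase in naive cells, at 3 h, at 10 h and in plasmablasts. It was at 262 and 279 RPKM in naive cells and at 628 and 564 RPKM at 3 h. This 2.21-fold rise (log2 1.14, SE 0.085, adjusted p = 1.05e-05) was followed by a 4.65-fold fall to 129 and 128 RPKM at 10 h (adjusted p = 1.01e-08). Levels then stayed at 161 and 142 RPKM at 33 h and 125 and 129 RPKM in expanded B cells, with no DE call. Plasmablasts held 379 and 399 RPKM, 3.06-fold more than expanded B cells (log2 1.61, SE 0.086, adjusted p = 1.77e-07). The gene thus stood high at 2 separate stages, 3 h and plasmablasts, with no overlap between their libraries and those of any other stage. Against naive cells, however, the change of 0.53 in plasmablasts was not called by glmTreat (adjusted p = 0.690). The F-test with no fold threshold called it (adjusted p = 9.05e-05). Of its exon bases, 728 of 2387 lie also in the read-through gene Gm20489 on the same strand, and how reads shared by both were counted is not given in the sources used here.

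The balance of the 3 IL-2 receptor chains moved with their opposite changes. The ratio of Il2ra to Il2rb RPKM was 0.523 and 0.410 in the naive libraries and 770 and 483 at 3 h. At 10 h it was 19.6 and 32.5, and at 33 h 19.95 and 6.36. Expanded B cells had ratios of 4.41 and 4.64, and plasmablasts of 9.07 and 9.30. Naive cells were therefore the only stage of the 6 with more beta chain than alpha chain RNA. Il2rg exceeded Il2rb in every library, by 53.1-fold to 3107-fold, and at 3 h the denominator rests on 10 and 24 counts.

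Il4ra (Entrez 16190, chromosome 7 from 125552271 to 125579474), the binding chain for IL-4 and IL-13, was high before activation and fell in steps. It stood at 113 and 118 RPKM in naive cells and at 130 and 100 RPKM at 3 h, levels that did not differ beyond their spread. From 3 h to 10 h it fell to 32.7 and 30.5 RPKM (log2 -1.87, SE 0.14, adjusted p = 2.57e-06). It was at 38.1 and 28.0 RPKM at 33 h and at 22.2 and 22.0 RPKM in expanded B cells, neither change being DE. Plasmablasts held 8.49 and 8.24 RPKM, 2.64-fold less than expanded B cells (log2 -1.40, SE 0.14, adjusted p = 8.14e-05) and 13.8-fold less than naive cells (adjusted p = 4.58e-10). Of its 6002 exon bases, 571 overlap the antisense gene Gm44876, and without strand information reads from the 2 cannot be told apart.

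Il21r (Entrez 60504) lies next to Il4ra on the same strand of chromosome 7, from 125603252 to 125634397, and 23777 bases with no RefSeq gene separate them. By 3 h, where Il4ra was not DE, it rose from 148 and 146 RPKM to 494 and 365 RPKM (log2 1.55, SE 0.12, adjusted p = 1.82e-06). It fell to 113 and 117 RPKM at 10 h (log2 -1.90, SE 0.12, adjusted p = 4.84e-07), next to -1.87 for Il4ra. At 33 h it was at 162 and 147 RPKM and in expanded B cells at 154 and 164 RPKM, which did not differ beyond their spread. Plasmablasts held 82.5 and 87.5 RPKM, with a change of -0.90 from expanded B cells (SE 0.12, adjusted p = 0.00984). This call was lost without replicate 2 of expanded B cells (adjusted p = 0.0556), without replicate 1 of plasmablasts (adjusted p = 0.0785) and with DESeq2 (adjusted p = 0.144). Against naive cells the change was -0.79 (adjusted p = 0.0305), lost without either naive library or without replicate 1 of plasmablasts (adjusted p of 0.0613 to 0.107) and with DESeq2 (adjusted p = 0.261).

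The ratio of Il21r to Il4ra RPKM was 1.30 and 1.23 in the naive libraries, 3.79 and 3.63 at 3 h, 3.46 and 3.82 at 10 h, and 4.25 and 5.24 at 33 h. Expanded B cells had ratios of 6.95 and 7.44, and plasmablasts of 9.72 and 10.6. The libraries of 3 h and 10 h overlapped, while those of the other neighbouring stages did not. The ratio was not tested. Il2rg, the chain that both receptors share, was 2.31 and 2.36 times as high as Il4ra in naive cells and 44.6 and 48.5 times as high in plasmablasts.

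**Figure D3:**
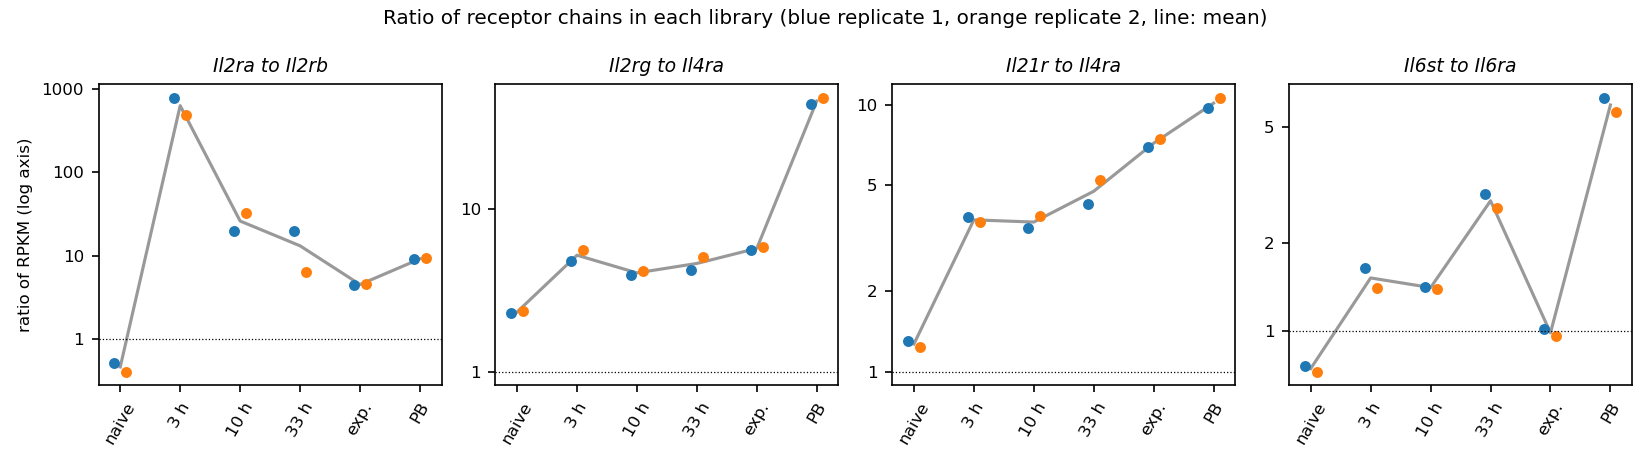
Ratio of the RPKM of receptor chain pairs in each library (log axis) over the 6 stages, with a line through the means and a dotted line at equal levels. The ratio of Il21r to Il4ra goes from 1.27 in naive cells to 10.2 in plasmablasts on average, and that of Il6st to Il6ra from 0.740 to 5.96, with 2.79 at 33 h and 0.982 in expanded B cells between them.

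Il5ra (Entrez 16192, chromosome 6 from 106710375 to 106749037), the binding chain for IL-5, fell and came back. It was at 21.1 and 19.2 RPKM in naive cells, 8.72 and 9.29 at 3 h, and 3.82 and 5.07 at 10 h. The fall by 3 h was -1.16 (SE 0.13, adjusted p = 3.1e-04) and that by 10 h -1.02 (SE 0.14, adjusted p = 0.00373). The second of these falls was no longer called without replicate 1 of 10 h (adjusted p = 0.0663) or with library size alone (no TMM factor, log2 -0.69, adjusted p = 0.202). Levels of 4.11 and 4.69 RPKM at 33 h did not differ from those at 10 h beyond their spread. Expanded B cells held 7.06 and 7.48 RPKM, a change of 0.73 that glmTreat did not call. Plasmablasts held 18.3 and 21.0 RPKM, a rise of 1.44 (SE 0.13, adjusted p = 3.16e-05), and did not differ from naive cells beyond the spread. The 3 genes of the B-1 cell list, cells known for Il5ra, summed to 76.9 to 82.7 CPM in naive libraries, 16.5 to 23.7 at 3 h, 37.1 to 44.9 at 10 h and 47.8 to 54.8 at 33 h. They summed to 256 to 277 CPM in expanded B cells and to 335 to 351 CPM in plasmablasts. From the former to the latter, Spn and Cd5 rose and Bhlhe41 fell. The 3 genes did not share 1 course, since Cd5 fell from 3 h to 10 h (log2 -3.22, adjusted p = 6.01e-07) while the sum rose. The gate of high IgD was used for naive cells only, and the part of B-1 cells in the course of Il5ra was not tested.

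Il6ra (Entrez 16194, chromosome 3 from 89869324 to 89913196) and Il6st (Entrez 16195, chromosome 13 from 112464070 to 112506860), the 2 chains of the IL-6 receptor, were not called at the same transitions, apart from a rise of both in expanded B cells. Il6ra fell from 8.55 and 8.05 RPKM to 3.86 and 3.92 RPKM by 3 h (log2 -1.09, SE 0.13, adjusted p = 5.4e-04). It was at 4.09 and 4.91 RPKM at 10 h and fell again to 1.24 and 1.51 RPKM at 33 h (log2 -1.72, SE 0.13, adjusted p = 5.79e-06), its lowest level. In expanded B cells it stood at 9.37 and 10.0 RPKM, a 7.10-fold rise (log2 2.83, SE 0.13, adjusted p = 7.63e-08) that was the largest of the 10 genes at this transition. Plasmablasts held 8.14 and 8.19 RPKM, a change of -0.25 that was not DE, and matched naive cells within the spread. Of the exon bases of Il6ra, 242 of 8642 overlap the antisense gene Gm42809.

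Il6st was not DE at the 3 transitions before the first division, at 6.48 and 5.82 RPKM in naive cells, 6.33 and 5.47 at 3 h, and 5.79 and 6.85 at 10 h. Its level of 3.65 and 3.99 RPKM at 33 h was lower in both libraries, but the change of -0.73 was not called by glmTreat (adjusted p = 0.188), whereas the F-test with no fold threshold called it (adjusted p = 2.1e-04). It rose to 9.46 and 9.56 RPKM in expanded B cells (log2 1.32, SE 0.11, adjusted p = 8.77e-05). Plasmablasts held 51.2 and 46.2 RPKM, a further 5.12-fold (log2 2.36, SE 0.11, adjusted p = 2.24e-08), so that Il6st was 7.91-fold higher than in naive cells (adjusted p = 3.67e-10). It went from the 45.8 percentile of tested genes in naive cells to the 86.1 percentile. The ratio of Il6st to Il6ra was 0.758 and 0.723 in naive cells. At 3 h it was 1.64 and 1.40, at 10 h 1.42 and 1.39, and at 33 h 2.95 and 2.64. It was back at 1.009 and 0.955 in expanded B cells before plasmablasts reached 6.29 and 5.63.

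Il10ra (Entrez 16154, chromosome 9 from 45253837 to 45269149), which binds the regulatory cytokine IL-10, was lowest in plasmablasts. It stood at 65.6 and 56.4 RPKM in naive cells and fell to 25.3 and 33.0 RPKM by 3 h (log2 -1.06, SE 0.15, adjusted p = 0.00299). It then lay between 27.2 and 40.3 RPKM in the 6 libraries of 10 h, 33 h and expanded B cells, with no DE call. Plasmablasts held 2.25 and 2.73 RPKM, 11.4-fold less than expanded B cells (log2 -3.51, SE 0.17, adjusted p = 2.81e-08) and 24.4-fold less than naive cells (adjusted p = 4.69e-10). This was the largest fall of the 10 genes at either comparison. Over the 12 libraries its log2 CPM ran opposite to that of Il6st (Pearson's r = -0.93, n = 12), as a description of libraries that share stages.

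Ifngr1 (Entrez 15979, chromosome 10 from 19591949 to 19610229), the binding chain for interferon gamma, fell at the transitions from 3 h to 10 h and from 10 h to 33 h. It was at 52.0 and 50.5 RPKM in naive cells and 51.7 and 39.2 RPKM at 3 h, which overlapped. It fell to 19.2 and 20.2 RPKM at 10 h (log2 -1.20, SE 0.12, adjusted p = 1.4e-04) and to 10.96 and 10.4 RPKM at 33 h (log2 -0.88, SE 0.12, adjusted p = 0.0280). The second fall was lost with DESeq2 (adjusted p = 0.396) and without each of its 4 libraries in turn (adjusted p of 0.0544 to 0.129). Expanded B cells held 10.4 and 10.2 RPKM and plasmablasts 6.73 and 7.48 RPKM, a change of -0.53 between them that was not DE. From naive cells to plasmablasts the fall was 7.20-fold (adjusted p = 1.34e-09). Its log2 CPM followed that of Il4ra over the 12 libraries (Pearson's r = 0.95).

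Both Il10ra and Ifngr1, and also Il6ra, are known on myeloid cells, whose 7 markers summed to 121 to 274 CPM in naive libraries and 2.43 to 4.69 CPM at 3 h. Of them Lyz2 had 5032 and 1642 counts in the naive libraries, and S100a8 was at 0 in every later library. The list was at 35.5 to 37.5 CPM in expanded B cells and 0.403 to 0.709 CPM in plasmablasts. Itgam and Adgre1 carried it in expanded B cells, with 1783 and 1018 counts over both libraries. Lyz2, S100a8 and S100a9 had 0 counts there, Csf1r had 6 and Siglecf had 11. The part of such cells in the falls of Il10ra and Il6ra by 3 h, and in that of Il10ra into plasmablasts, was not tested.

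**Figure D4:**
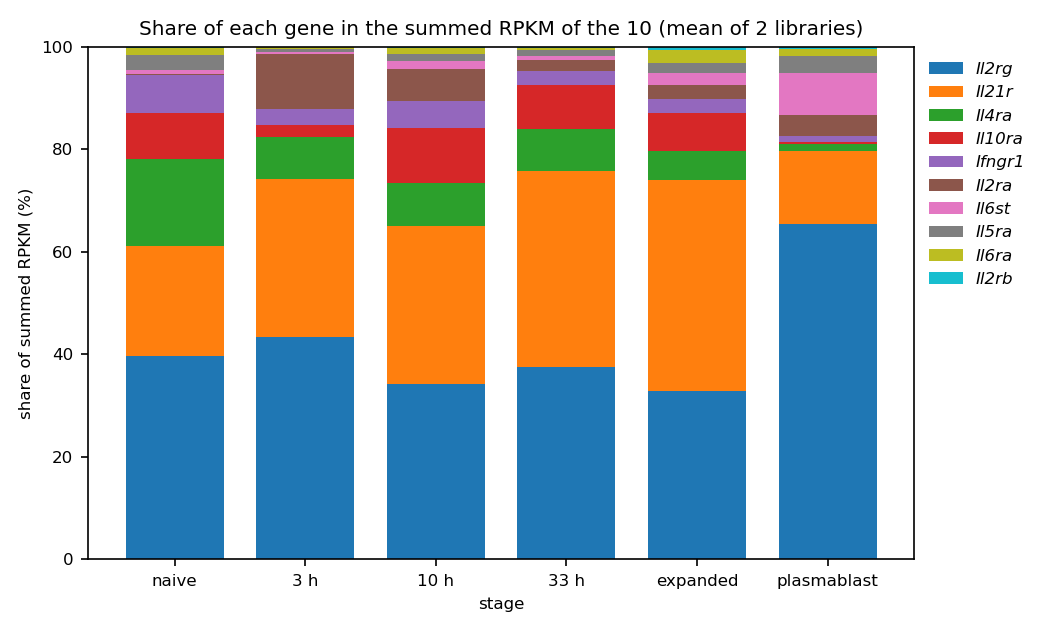
Share of each gene in the summed RPKM of the 10 receptor genes by stage (mean of 2 libraries, bars stacked from 0 to 100%). Il21r goes from 21.5% in naive cells to 41.1% in expanded B cells and 14.3% in plasmablasts, where Il2rg holds 65.4% and Il6st 8.20%.

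Chains that complete these receptors were followed as a list of 12 genes, of which 10 were tested, and Osmr and Cntfr had too few counts. At the 5 transitions in turn, 3, 1, 0, 2 and 2 of the 10 rose and 4, 3, 1, 2 and 3 fell by glmTreat. The shares of all tested genes were 20.9%, 17.2%, 10.0%, 6.87% and 14.0% for rises and 24.2%, 13.3%, 4.41%, 3.56% and 12.1% for falls. For the rise count of 0, DESeq2 and the unadjusted p under 0.05 also gave 0, and the F-test gave 1. Csf2rb, the common beta chain that IL-5, IL-3 and GM-CSF receptors share, was at 4.42 and 3.86 RPKM in naive cells, while expanded B cells held 18.8 and 20.3 and plasmablasts 32.6 and 33.3. Its rise from naive cells to plasmablasts was 2.99 (SE 0.21, adjusted p = 4.43e-07), next to -0.03 for Il5ra, which was not DE. Ifngr2, the signalling chain for interferon gamma, rose at 3 h from 40.3 and 34.2 RPKM to 86.3 and 64.6 RPKM (log2 1.02, SE 0.13, adjusted p = 0.0020). It then went down to 10.6 and 11.8 RPKM in plasmablasts, with a change of -1.73 from naive cells (adjusted p = 1.39e-06), so that both chains of this receptor were lowest there. Il10rb, the second chain for IL-10, was at 56.3 and 54.4 RPKM in naive cells and fell by 3 h (log2 -0.94, adjusted p = 0.0034). It was at 16.6 and 17.5 RPKM in expanded B cells and rose to 41.9 and 40.1 RPKM in plasmablasts (log2 1.27, SE 0.12, adjusted p = 7.5e-05), where Il10ra was lowest. From naive cells to plasmablasts the change of Il10rb was -0.43, which was not DE.

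Among the other partner chains, Il15ra, which takes the place of Il2ra in the IL-15 receptor, rose at 3 h from 1.32 and 1.42 RPKM to 3.98 and 6.16 RPKM (log2 1.91, SE 0.22, adjusted p = 4.2e-05) and fell by 10 h (log2 -1.23, adjusted p = 0.0044). Il9r, a gamma chain partner, went from 19.99 and 15.7 RPKM in naive cells to 1.31 and 1.59 RPKM at 33 h and to 0.201 and 0.145 RPKM in plasmablasts. Its fall from naive cells to plasmablasts was -6.70 (SE 0.33, adjusted p = 1.62e-10), on 15 and 13 counts in the latter. Il27ra, which pairs with gp130 for IL-27, went from 25.1 and 26.0 RPKM to 1.09 and 0.879 RPKM over the same interval (log2 -4.70, SE 0.22, adjusted p = 1.09e-09), the opposite direction to Il6st. Il7r and Lifr had at most 139 and 191 counts over both libraries of any stage, and Il11ra1 at most 39. Il7r rose by 3 h (log2 2.01, adjusted p = 0.0356) and Lifr fell (log2 -3.39, adjusted p = 5.4e-05), while Il11ra1 was not DE at any transition. Il13ra1, which forms the second type of IL-4 receptor, had 84 counts over both naive libraries, none over both libraries at 3 h, and 155 over both plasmablast libraries.

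**Figure D5:**
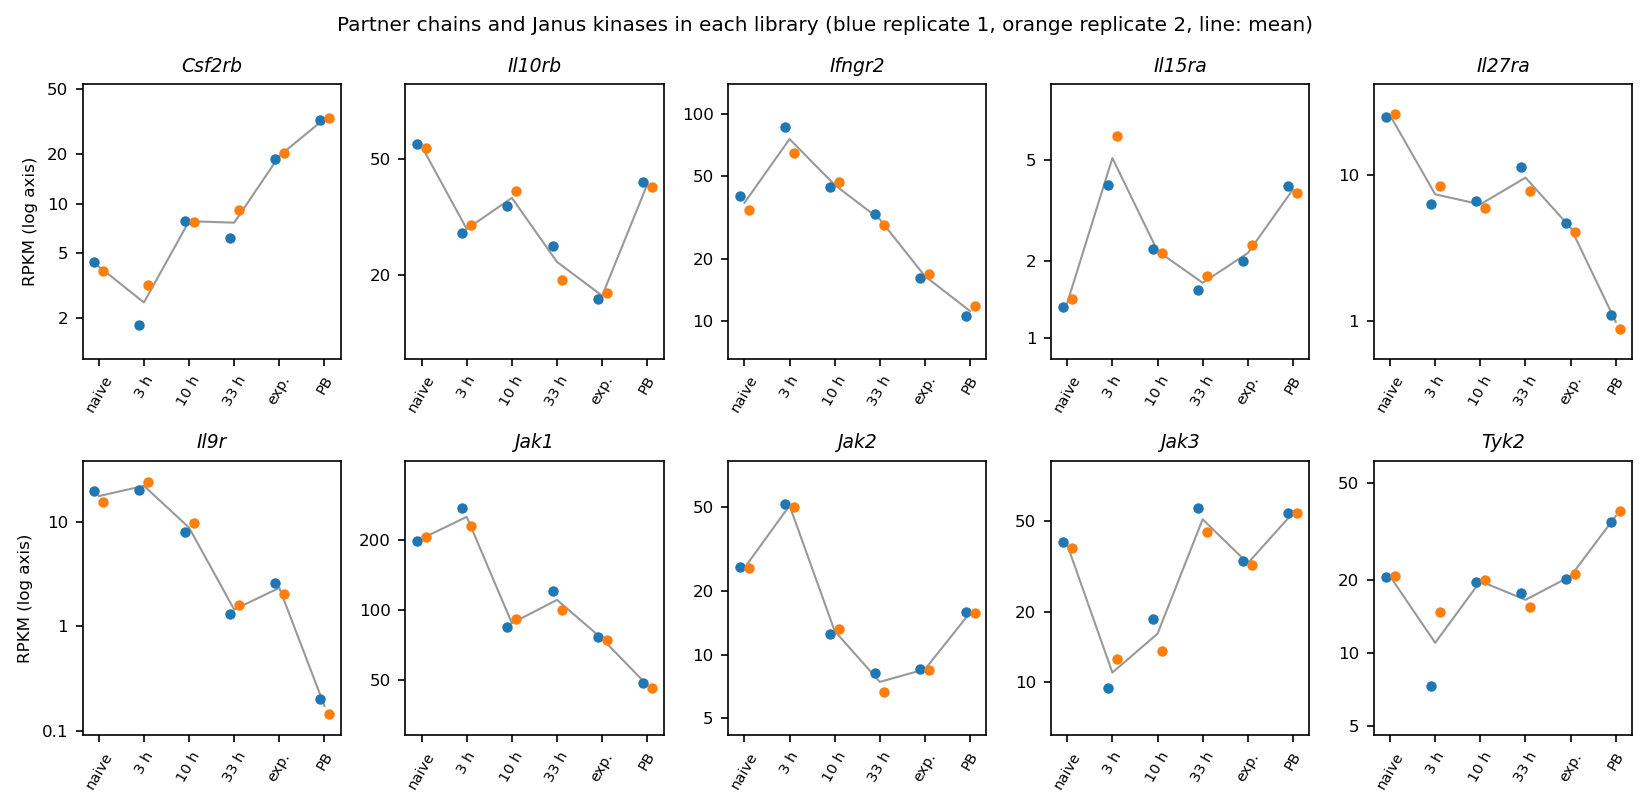
RPKM (log axis, scaled per gene) of 6 partner chains and the 4 Janus kinases at 6 stages, with 1 point per library and a line through the means. Csf2rb is highest in plasmablasts at 32.9 RPKM on average, where Ifngr2, Il27ra, Il9r and Jak1 are lowest.

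Of the 4 Janus kinases, Jak3, which binds the common gamma chain, went against Il2rg at 3 h. It fell from 40.5 and 38.0 RPKM to 9.36 and 12.5 RPKM (log2 -1.84, SE 0.16, adjusted p = 7.53e-06) and rose from 18.6 and 13.6 RPKM at 10 h to 56.7 and 44.6 RPKM at 33 h (log2 1.65, adjusted p = 9.2e-05). Jak1, the kinase of most of these receptors, was at 198 and 207 RPKM in naive cells and fell from 274 and 230 RPKM at 3 h to 84.3 and 91.1 RPKM at 10 h (log2 -1.52, adjusted p = 2.24e-06). It ended at 48.6 and 46.2 RPKM in plasmablasts, -2.10 against naive cells (SE 0.10, adjusted p = 9.07e-09). Jak2 rose from 25.8 and 25.6 RPKM to 51.5 and 49.9 RPKM at 3 h (log2 0.98, adjusted p = 4.3e-04) and fell to 12.6 and 13.3 RPKM at 10 h (log2 -1.97, adjusted p = 7.12e-08). It fell further by 33 h (log2 -0.80, adjusted p = 0.0446) and rose in plasmablasts (log2 0.89, adjusted p = 0.0048). Tyk2 was not DE at any transition, with levels from 7.33 and 14.7 RPKM at 3 h to a mean of 36.6 RPKM in plasmablasts.

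A list of 32 other cytokine receptor genes, of which 22 were tested, had 4 rises and 3 falls by 3 h, 1 and 7 by 10 h, 2 and 5 by 33 h, 2 and none between 33 h and expanded B cells, and 7 and 2 into plasmablasts, against the same shares of all tested genes (20.9% and 24.2% by 3 h, 14.0% and 12.1% into plasmablasts). Among the falls by 3 h were Csf1r, a gene of the myeloid list, and Csf3r. They went from 1410 and 303 counts over both naive libraries to 2 and 1 over both libraries of 3 h. The part of myeloid cells in these falls was not tested. The remaining fall by 3 h was that of Il12rb1 (log2 -4.03, adjusted p = 3.7e-06). For the fall count of 0, DESeq2 and the unadjusted p under 0.05 also gave 0, and the F-test gave 2. Il1r2, the decoy receptor for IL-1, shared with Il2ra a peak at 3 h. It went from 0.386 and 0.366 RPKM to 33.1 and 29.9 RPKM (log2 6.37, SE 0.31, adjusted p = 8.96e-10) and back to 1.90 and 1.11 RPKM at 10 h (log2 -4.36, adjusted p = 2.21e-08). It fell again by 33 h (log2 -2.003), rose in expanded B cells (log2 3.50) and fell in plasmablasts (log2 -1.89), with adjusted p of at most 6.7e-04. Tgfbr1 rose by 3 h (log2 1.52, adjusted p = 3.94e-06) and fell by 10 h (log2 -1.62, adjusted p = 4.69e-06). It fell again by 33 h (log2 -1.16, adjusted p = 8.3e-04) and rose in plasmablasts (log2 1.13, adjusted p = 7.9e-04). Il3ra fell by 10 h (log2 -1.99, adjusted p = 1.4e-04) and rose by 33 h (log2 1.23, adjusted p = 0.0204). The interferon receptor gene Ifnar2 (log2 1.57, adjusted p = 1.59e-06) and the TSLP receptor gene Crlf2 (log2 1.54, adjusted p = 4.5e-05) rose from expanded B cells to plasmablasts. Neither was DE from naive cells to plasmablasts (log2 0.60 for Ifnar2 and 0.06 for Crlf2). Against naive cells, Tgfbr2 (log2 -1.51) and Il17ra (log2 -1.31) fell in plasmablasts, with adjusted p of at most 1.8e-05, and Il1r2 (log2 1.61) and Il3ra (log2 1.58) were higher, with adjusted p of at most 0.0036.

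RNA of the ligands was mostly scarce in these cells. Of 10 ligand genes 4 were tested, and Il5 had no count in any library, while Il4, Il13 and Il21 had at most 3 counts over both libraries of any stage. Il2 reached 12 counts over both libraries of 3 h and Il27 7 over those of 33 h. Il10 had 0 and 1 counts in naive cells and was at 9.26 and 11.1 RPKM at 3 h (adjusted p = 2.5e-06), then between 10.9 and 29.4 RPKM in all later libraries, those of plasmablasts included. Il6 had 0 and 1 counts in naive cells, stood at 16.3 and 12.3 RPKM at 10 h and 5.47 and 4.36 RPKM in expanded B cells, and had 0 and 1 counts in plasmablasts (adjusted p = 6.95e-07), where Il6st was highest. Il15 rose from expanded B cells to plasmablasts on 10 and 109 counts over both libraries (log2 3.90, adjusted p = 9.86e-06), and Ifng on 2 and 33 counts (adjusted p = 0.0026).

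For each of the 10 receptor genes, the 2 genes with the most similar course were taken from 8836 tested genes whose log2 CPM averaged at least 3, by Pearson's r of log2 CPM over the 12 libraries. The libraries share stages, so that r describes the course and is given with no test. Il2ra ran with Bcl2l1 (r = 0.98) and Mgll (0.98), Il2rg with Srgn (0.99) and Lrp10 (0.98), and Il2rb with Ercc5 and Gna15 (both 0.95). Il4ra ran with Gucd1 (0.99), and Il21r with Lsm11 and Terf2 (both 0.97). Il5ra ran with Gm11478 (0.99) and Dgkd (0.97), Il6ra with Tbxa2r (0.94) and Ralgds (0.91), and Il6st with Slc17a5 (0.99) and Chpf2 (0.98). Il10ra ran with Slc37a2 and Herc3 (both 0.99), and Ifngr1 with Triobp and Sox4 (both 0.99). No gene was named for more than 1 receptor.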

How the data were processed

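RNA-Seq was analysed from 12 libraries in 6 groups of 2, as the labels give them. Per the labels and the study's methods, the authors made TruSeq libraries of polyA RNA, aligned reads to mm10 with Rsubread 1.28.0 and summarised them with featureCounts, with strand use not given in the sources used here. The deposited values are counts per Entrez gene, neither normalized nor filtered, with exon lengths as another unit. The 12 single-sample files held the same counts as the series table. From these, 1904 IDs with no match among RefSeq genes (GRCm38.p6), 15 mitochondrial and 33 ribosomal RNA genes and 248 variable immunoglobulin segments were removed, which left 24979 genes. X and Y genes, which the study's methods leave out, were kept because Il2rg is X-linked. filterByExpr kept 13195 genes. R 4.3.3 with edgeR 4.0.16 was used: TMM scaling, robust quasi-likelihood dispersions over all 12 libraries in a one-way layout, glmTreat against 1.5-fold and Benjamini-Hochberg adjustment at 0.05. RPKM and CPM were computed from the deposited counts. Alternatives were DESeq2 1.42.0 (size factors or Wald test), library size alone, the F-test, other filters, other dispersions, 4-library fits, a replicate block and leaving out each library.

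The members and gene lists were chosen with earlier results of these data known. Named genes are all 10 receptors, 12 partner chains, 4 Janus kinases and 10 ligands and, of other receptors whose log2 CPM averaged 2 or more, the 2 steepest DE rises and falls at each transition. Csf1r, Csf3r and Il12rb1 lie below that average and are named as the falls by 3 h in that list. Csf1r is itself a gene of the myeloid list. Of the genes most similar in course to a receptor, 1 is not reported here. Stages adjacent in level were taken as not differing where their means differed by no more than the sum of their SDs. The fit was tested on simulated data for expanded B cells against plasmablasts with 13195 genes. There glmTreat found 40% of genes changed 2-fold and 98% of those changed 8-fold, with 0 false calls. Changed genes were drawn from those above a minimum mean count. Unchanged genes had equal means and the fitted dispersion, so the absence of false calls followed from the setting. It does not measure error in the real data. A count of 0 allows up to 3 counts.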

Additional observations from a re-analysis of the deposited data

How the results depend on the processing

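The counts of DE receptor genes at the 5 transitions in turn (7, 7, 3, 3 and 7) and from naive cells to plasmablasts (6) changed by over 1.5-fold only with the F-test without a fold threshold, which gave 6 from 10 h to 33 h and 7 between 33 h and expanded B cells. Leaving out each library gave 7, 5 to 7, 2, 2 to 3, 6 to 7, and 5 to 6. Of 954 alternative values for single receptor genes, 900 kept their direction and side of the threshold, 22 lost a call, 11 gained 1 and 21 changed sign, the last all in changes that were not called. Library size alone shifted the median change of all tested genes by -0.21, 0.33, -0.33 and -0.27 from naive to 3 h, from 3 h to 10 h, from expanded B cells to plasmablasts and from naive to plasmablasts. It moved the splits into genes up and down from 2755 and 3188 to 2150 and 3828, from 2269 and 1760 to 3537 and 1027, from 1843 and 1600 to 1237 and 3022, and from 3497 and 3068 to 2837 and 3958. With it, Ifngr1 was called from expanded B cells to plasmablasts (-0.87, adjusted p = 0.0148). DESeq2 called 1013 genes up and 277 down from 10 h to 33 h (1321 and 582 with edgeR), and 613 and 300 between 33 h and expanded B cells (906 and 470). With DESeq2 the rise of Il2rb in expanded B cells was not called (adjusted p = 0.176), nor was it in the 4-library fit (0.0627).

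Log2 changes that turned sign were those of Il2rb into plasmablasts (-0.20 with library size alone) and of Il5ra from 10 h to 33 h (0.019 with DESeq2's size factors or Wald test, 0.016 without a filter and 0.016 in the 4-library fit). Leaving out 1 library gave ranges of -0.20 to 0.20 for Il5ra, -1.09 to 0.39 for Il2rb, -0.17 to 0.27 for Il4ra and -0.43 to 0.013 for Il10ra from 10 h to 33 h, of -0.16 to 0.017 for Il6st and -0.20 to 0.14 for Il4ra by 3 h, and of -0.018 to 0.22 for Il6st by 10 h. It gave -0.034 to 0.11 for Il21r in expanded B cells, and -0.13 to 0.065 for Il5ra and -0.062 to 0.020 for Il6ra from naive cells to plasmablasts. The cause was not tested. Replicate numbers did not pair the libraries (r of their deviations from -0.14 to 0.097), and a replicate block gave the same counts of DE receptor genes as no block, 7, 7, 3, 3, 7 and 6. Depth limited Il2rb at 3 h, with 10 and 24 counts.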
